A study of Mus musculus with 6 samples.

Results

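The insulin receptor signalling chain was followed through 10 genes, Insr, Irs1, Irs2, Pik3r1, Akt1, Akt2, Foxo1, Tbc1d4, Grb10 and Grb14, of the 22180 genes that the array annotation names. Each gene was read from the array row that names it alone, and Irs1 and Foxo1, which have 2 such rows, from the row with the higher mean. All 10 genes had such a row, and all 10 rows lay above the median of their array in all 6 arrays. The tissue was the epididymal white fat pad (eWAT), a visceral depot beside the epididymis, of male C57BL/6 mice aged 8 months and kept on a high-fat diet (D12492) for 21 weeks. The 2 groups were wild-type mice (WT, 3 arrays) and mice with an adipose-specific Blnc1 transgene (Tg, 3 arrays), each array from 1 biological replicate by its label. Blnc1 encodes a long noncoding RNA first studied in thermogenic fat, with EBF2 as a protein partner. For the transgene, the promoter and the number of founder lines are not given in the sources used here. No row carries the symbol Blnc1, so the targeted gene does not check the labels. Age, sex, strain and diet were the same in both groups, and no chow-fed or insulin-treated group was part of the comparison.

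Insulin binds the receptor tyrosine kinase encoded by Insr, which phosphorylates the docking proteins IRS1 and IRS2. These recruit phosphoinositide 3-kinase through its regulatory subunit p85α, the product of Pik3r1, and the lipid that the kinase makes brings AKT kinases to the membrane. AKT phosphorylates TBC1D4, a Rab GTPase-activating protein whose inhibition lets the glucose transporter GLUT4 move to the cell surface, and FOXO1, a transcription factor that then leaves the nucleus. GRB10 and GRB14 are adaptors that bind the activated receptor and inhibit it. In adipocytes the chain drives glucose uptake, restrains lipolysis and supports lipid synthesis. Most of its control acts on protein phosphorylation, which RNA arrays do not measure.

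The values are log2 expression levels from RMA, so a difference of 1 is a doubling, and the median over all rows lay between 2.64 and 2.75 in the 6 arrays. The measured white adipocyte markers (10 of 11 listed) averaged 9.68 to 10.29 by array. Tg 2 carried epididymal transcripts, with Lcn9 at 9.87 against at most 1.62 in the other 5 arrays. WT 2 and WT 3 carried Spink8, another reproductive tract gene, at 6.55 and 8.09 against at most 1.21 in WT 1, Tg 1 and Tg 3, and had the highest T and NK cell marker levels, 5.50 and 6.05, against 3.77 to 4.70 in the other 4 arrays. WT 1, Tg 1 and Tg 3 had the least of the tract transcripts, Tg 1 with a trace (Gpx5 at 3.22, against 10.8 in Tg 2). They were not the lowest for lymphoid markers. T and NK cell markers averaged 4.70 in Tg 1 against 3.99 in Tg 2, and B cell markers were highest in Tg 1, at 5.65. For the 10 genes the difference within WT 1, Tg 1 and Tg 3 is also given. It is a value with no test, since it sets 2 Tg mice against 1 WT mouse.

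Irs2, Foxo1 and Akt2 were higher in all 3 Tg arrays than in all 3 WT arrays, Akt1 was lower in all 3, and the groups overlapped for the other 6 genes. By size, the differences ran from 0.55 for Irs2 (1.47-fold) to -0.16 for Akt1, with a median of 0.15 over the 10 genes against -0.01 over all rows. In Tg 7 of the 10 were higher, against 47.2% of all rows and 43.5% of rows with a mean level above 4, and 8 of 10, against 60.2% of all rows, with each array centred on its median. None passed the threshold: limma's adjusted p lay between 0.40 and 0.99 for the 10 genes, and 0% of all 41345 rows passed at 0.05. At an unadjusted p under 0.05 there were 2 of 10, Irs2 and Foxo1, where 10.3% of all rows and 14.4% of rows with a mean level above 4 reached it. By direction, these were 2 higher, against 4.43% of all rows and 6.55% of the brighter rows, and 0 lower, against 5.88% and 7.82%. Groups did not overlap in 4 of 10 genes, against 16.7% of all rows and 24.4% of rows with a mean above 4, the level that all 10 genes exceed. They were 3 higher, against 7.36% and 10.3%, and 1 lower, against 9.35% and 14.1%. An exact permutation test of 3 arrays against 3 cannot give a 2-sided p below 0.1, so single genes are described by their values, the standard error (SE) of the fit and the overlap of the groups.

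**Figure D1:**
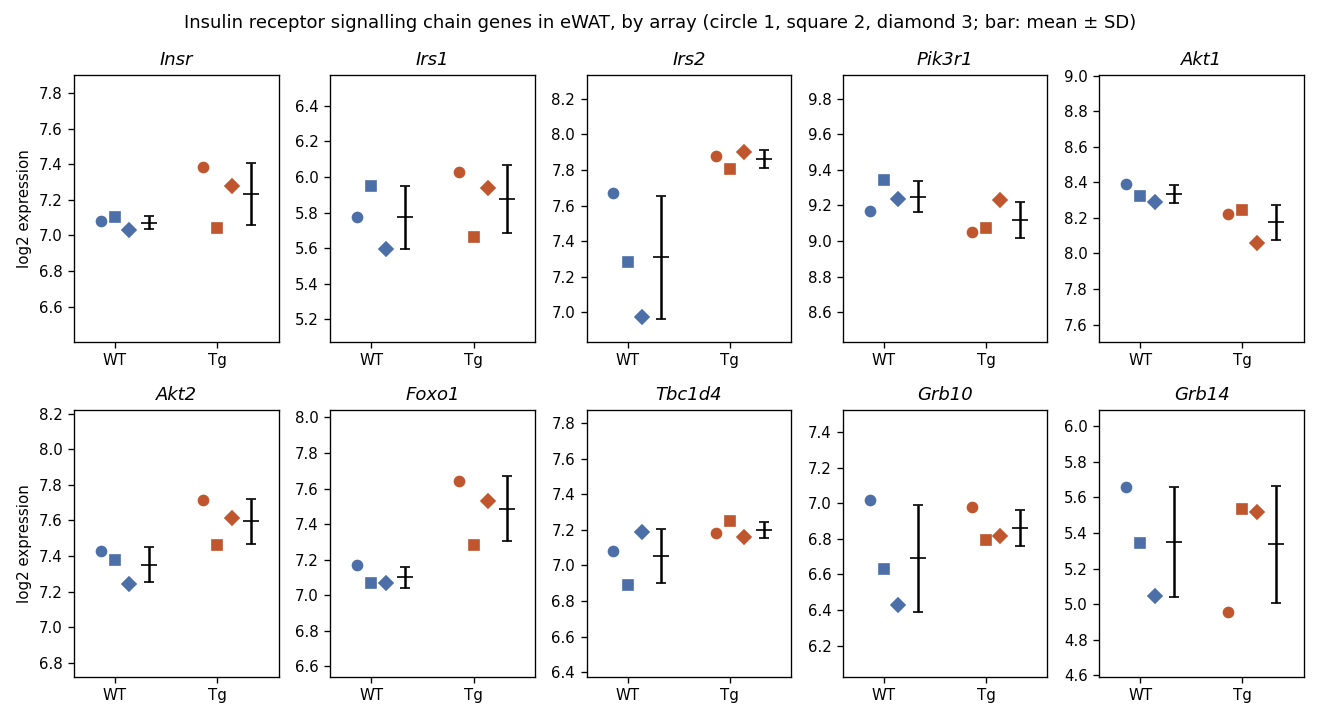
Log2 expression (vertical axes, each spanning 1.5 log2 units) of the 10 genes in WT and Tg eWAT. Points are single arrays, circle, square and diamond standing for replicates 1, 2 and 3, and bars are mean ± SD of 3 arrays; Irs2, Foxo1 and Akt2 lie higher in each Tg array and Akt1 lower, while the other 6 genes overlap.

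Insr, the receptor itself, read 7.08 in WT 1, 7.10 in WT 2 and 7.03 in WT 3, against 7.38 in Tg 1, 7.04 in Tg 2 and 7.28 in Tg 3. Values of the other genes follow in this array order. The WT arrays were nearly level (SD 0.04), and the Tg arrays spread from within the WT range to 0.28 above its top, so the groups overlapped through Tg 2. The difference was 0.16 ± 0.12 (SE, n = 3 per group), with a 95% interval of -0.12 to 0.45. It was 0.090 without Tg 1, 0.26 without Tg 2 and 0.25 in WT 1, Tg 1 and Tg 3 alone.

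Irs1, the docking protein gene that carries most insulin signal in many cell types, read 5.77, 5.95 and 5.60 in WT and 6.03, 5.66 and 5.94 in Tg. The arrays of both groups were interleaved, and the difference was 0.10 ± 0.15 (95% interval -0.25 to 0.45). Single arrays decided its size, which was 0.015 without WT 3, 0.027 without Tg 1, 0.19 without WT 2 and 0.21 without Tg 2, and it was 0.21 in WT 1, Tg 1 and Tg 3 alone. Its second row lay below the array median in all 6 arrays and read 0.21 ± 0.23.

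Irs2, the second docking protein gene and itself a known FOXO1 target, read 7.67, 7.28 and 6.98 in WT and 7.88, 7.81 and 7.90 in Tg. The Tg arrays lay within 0.10 of each other (SD 0.05), while the WT arrays spread over 0.69 (SD 0.35), and the lowest Tg array exceeded the highest WT array, WT 1, by 0.14. The difference of 0.55 ± 0.18 (95% interval 0.12 to 0.99, limma adjusted p = 0.41) therefore depended on which WT arrays entered: it was 0.39 without WT 3, 0.73 without WT 1, and 0.22 when Tg 1 and Tg 3 were set against WT 1 alone. Within each array, Irs2 minus Irs1 averaged 1.54 ± 0.31 in WT and 1.99 ± 0.15 in Tg (SD, n = 3), and the change of 0.45 in this gap had an exact permutation p of 0.2.

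The proximal promoter of Irs2, the gene of the chain with the largest difference, is shown with stretches of Irs1 and Irs4 because these genes have a sequence arrangement in common. Windows of 250 bases before the annotated start were taken from RefSeq (GRCm38.p6), which held 15 such windows for 9 of the 10 genes, all except Insr. They were searched on both strands for 4 motifs: TGTTTTG, the insulin response sequence that FOXO proteins recognise in several insulin-repressed promoters; TTGTTTAC, a FOXO consensus; CACGTG, an E-box; and the EBF palindrome, searched because EBF2 is a known partner of Blnc1. Capitals mark the matches.
Irs2, chr8:11008930-11009179, minus strand: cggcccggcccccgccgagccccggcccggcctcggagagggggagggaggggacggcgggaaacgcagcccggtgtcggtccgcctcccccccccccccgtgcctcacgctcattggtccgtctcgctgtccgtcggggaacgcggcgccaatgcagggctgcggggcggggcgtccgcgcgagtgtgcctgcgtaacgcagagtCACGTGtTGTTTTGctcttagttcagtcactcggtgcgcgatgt

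The Irs2 window holds 1 E-box, starting 44 bases before the start site, and 1 insulin response sequence, starting 37 bases before it, with 1 base between them. Irs1 and Irs4, a relative that is not part of the chain followed here, hold the same pair, overlapping in Irs1 and again 1 base apart in Irs4. The stretches around the pair are set side by side.
Irs1, chr1:82291534-82291564, minus strand: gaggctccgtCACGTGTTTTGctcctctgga
Irs2, chr8:11008950-11008983, minus strand: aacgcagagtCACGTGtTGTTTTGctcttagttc
Irs4, chrX:141725348-141725381, minus strand: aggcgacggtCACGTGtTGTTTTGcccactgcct
Of all 32851 windows in the RefSeq table, 1827 (5.56%) held an insulin response sequence and 1978 (6.02%) an E-box, but only 7 (0.0213%) held both starting within 10 bases of each other, and 3 of those 7 belonged to the 4 IRS genes. The fourth, Irs3, did not hold the pair. The distance of 10 bases was chosen after the Irs1 and Irs2 windows had been seen. A match describes letters and not a bound site, and Irs1, which carries the pair, did not differ between the groups beyond its SE.

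Pik3r1, the gene of the p85α regulatory subunit, read 9.17, 9.34 and 9.24 in WT and 9.05, 9.07 and 9.23 in Tg. Tg 3 lay inside the WT range and the other Tg arrays below it, with a difference of -0.13 ± 0.10 (95% interval -0.38 to 0.12). It was -0.086 without WT 2 and -0.029 in WT 1, Tg 1 and Tg 3 alone.

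The AKT genes went opposite ways. Akt1, the widely expressed kinase gene, read 8.39, 8.32 and 8.29 in WT and 8.22, 8.24 and 8.06 in Tg, a difference of -0.16 ± 0.10, with the highest Tg array only 0.05 below the lowest WT array. Akt2, the gene of the kinase best known for glucose uptake in fat and muscle, read 7.43, 7.38 and 7.24 in WT and 7.71, 7.46 and 7.61 in Tg, a difference of 0.25 ± 0.11, with 0.03 between the groups. Neither passed (adjusted p = 0.62 and 0.52 in limma). Within each array, Akt2 minus Akt1 was -0.96, -0.94 and -1.05 in WT and -0.51, -0.78 and -0.45 in Tg, so the gap was narrower by 0.41 in Tg with no overlap. Its exact permutation p was 0.1, the smallest the design allows, and 0.3 after Benjamini-Hochberg adjustment over the 3 pairs of related genes compared (Irs2 with Irs1, Akt2 with Akt1, Grb14 with Grb10). In WT 1, Tg 1 and Tg 3 alone the differences were 0.23 for Akt2 and -0.25 for Akt1, and without Tg 3 that of Akt1 was -0.10.

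The Akt1 window is shown because it holds the single FOXO consensus among the 15 windows, 162 bases before the more upstream of its 2 starts. Of all windows, 1.07% hold that motif.
Akt1, chr12:112674885-112675134, minus strand: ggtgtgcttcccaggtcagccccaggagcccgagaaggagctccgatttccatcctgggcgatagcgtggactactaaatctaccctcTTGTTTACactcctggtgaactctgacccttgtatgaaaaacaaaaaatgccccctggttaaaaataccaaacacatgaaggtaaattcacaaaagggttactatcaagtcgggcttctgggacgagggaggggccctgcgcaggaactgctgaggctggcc
The 4 windows of Akt2 hold none of the 4 motifs.

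Foxo1, the transcription factor at the end of the chain, read 7.17, 7.07 and 7.07 in WT and 7.64, 7.28 and 7.53 in Tg. The WT arrays lay within 0.10 of each other, and the lowest Tg array, Tg 2, lay 0.12 above the highest WT array. The difference was 0.38 ± 0.12 (1.31-fold, 95% interval 0.09 to 0.68, limma adjusted p = 0.40). It was 0.48 without Tg 2 and 0.42 in WT 1, Tg 1 and Tg 3 alone. A second, dimmer Foxo1 row, at 3.39, 2.93 and 3.13 in WT and 3.81, 4.73 and 3.57 in Tg, also had no overlap and differed by 0.89 ± 0.31, with Tg 2, the lowest Tg array in the first row, as the highest in this one. The Foxo1 window is shown because it holds 1 EBF palindrome, 92 bases before the start, a motif found in 0.779% of all windows and, among these genes, also in 1 of the 2 windows of Grb10.
Foxo1, chr3:52268087-52268336, plus strand: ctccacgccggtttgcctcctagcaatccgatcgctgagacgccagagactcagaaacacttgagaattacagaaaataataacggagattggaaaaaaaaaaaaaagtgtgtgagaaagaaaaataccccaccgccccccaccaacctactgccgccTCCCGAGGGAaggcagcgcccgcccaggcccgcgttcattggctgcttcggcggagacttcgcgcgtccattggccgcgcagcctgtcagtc

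Tbc1d4, the gene of the AKT substrate that holds back GLUT4 vesicles, read 7.08, 6.89 and 7.19 in WT and 7.18, 7.25 and 7.16 in Tg. The Tg arrays were close together (SD 0.05) at the top of the WT range, and the difference was 0.14 ± 0.11 (95% interval -0.12 to 0.41). It was 0.062 without WT 2 and 0.091 in WT 1, Tg 1 and Tg 3 alone.

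The inhibitory adaptors did not separate the groups. Grb10 read 7.02, 6.63 and 6.43 in WT and 6.98, 6.79 and 6.81 in Tg, a difference of 0.17 ± 0.17. It was 0.33 without WT 1, 0.038 without WT 3 and 0.11 without Tg 1, and -0.12 in WT 1, Tg 1 and Tg 3 alone. Grb14 read 5.66, 5.34 and 5.05 in WT and 4.96, 5.54 and 5.52 in Tg. Tg 1 was the lowest of all 6 arrays for Grb14, and the difference of -0.012 ± 0.22 (95% interval -0.54 to 0.52) changed sign in 6 of 17 alternatives, among them 0.18 without Tg 1, 0.053 with each array centred on its median, 0.032 with quantile normalization and 0.027 with cyclic loess. It was -0.16 without WT 3 and -0.42 in WT 1, Tg 1 and Tg 3 alone, the farthest from the main value. The gap between Grb14 and Grb10 changed by -0.18 with an exact permutation p of 0.9.

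**Figure D2:**
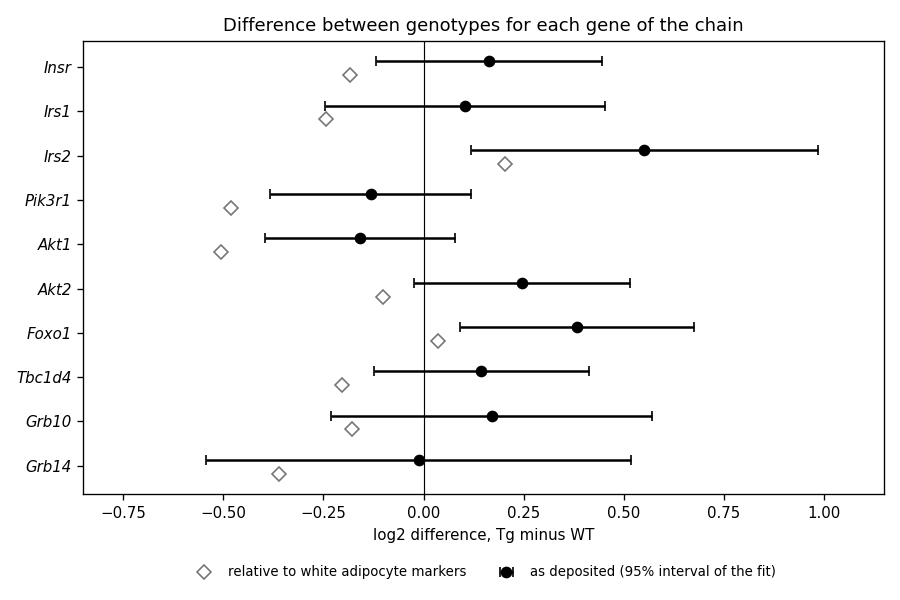
Log2 difference, Tg minus WT (horizontal axis), for each of the 10 genes (vertical axis), with 95% intervals of the limma fit on 3 arrays per group (filled circles). Open diamonds give the same difference after the mean of the white adipocyte markers of each array was subtracted; the intervals of Irs2 and Foxo1 lie above 0, and after subtraction 8 of the 10 differences are below 0, as 92.9% of all rows are.

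Levels of cell type markers were set beside those of the 10 genes. In bulk tissue, fewer cells of a type and less RNA per cell cannot be told apart. The white adipocyte markers averaged 9.98, 9.81 and 9.68 in WT, against 10.29, 10.02 and 10.20 in Tg, all 10 higher in Tg by a median of 0.36. The 8 endothelial markers averaged 8.44, 8.24 and 7.86 in WT and 8.68, 8.46 and 8.52 in Tg. The 11 macrophage markers were all lower in Tg, with means of 9.78 to 9.90 in WT and 9.52 to 9.54 in Tg, and the 7 mast cell markers averaged 6.30 to 7.39 in WT and 5.25 to 5.74 in Tg. The WT arrays stood in the order WT 1, WT 2, WT 3 for the adipocyte and endothelial markers and for 6 of the 10 genes (Irs2, Akt1, Akt2, Foxo1, Grb10 and Grb14). In 3 of these, Akt2, Foxo1 and Grb10, the Tg arrays stood in the adipocyte marker order too, Tg 1, Tg 3, Tg 2. The part of cell composition in the differences was not tested.

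Set against the white adipocyte markers of the same array, a scaling added after the values were seen, nearly the whole array was lower in Tg: 92.9% of all rows and 92.2% of rows with a mean above 4. Of the 10 genes, 8 were lower, 5 of them without overlap, where 43.1% of all rows and 52% of the brighter rows were lower without overlap, so these counts lay near the background. The 5 were Akt1 (-0.51 ± 0.16), Pik3r1 (-0.48 ± 0.17), Irs1 (-0.24 ± 0.15), Insr (-0.18 ± 0.15) and Akt2 (-0.10 ± 0.14). Irs2 (0.20 ± 0.16) and Foxo1 (0.04 ± 0.14) were the 2 genes above 0, both with overlapping groups, and 0 of 10 were higher without overlap, against 0.697% of all rows and 1.33% of the brighter rows. The differences of Insr, Irs1, Akt2, Tbc1d4 and Grb10 changed sign. A ratio of this kind shows unequal change between these genes and the markers, and the smallest limma adjusted p among the 10 in this scaling was 0.12.

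**Figure D3:**
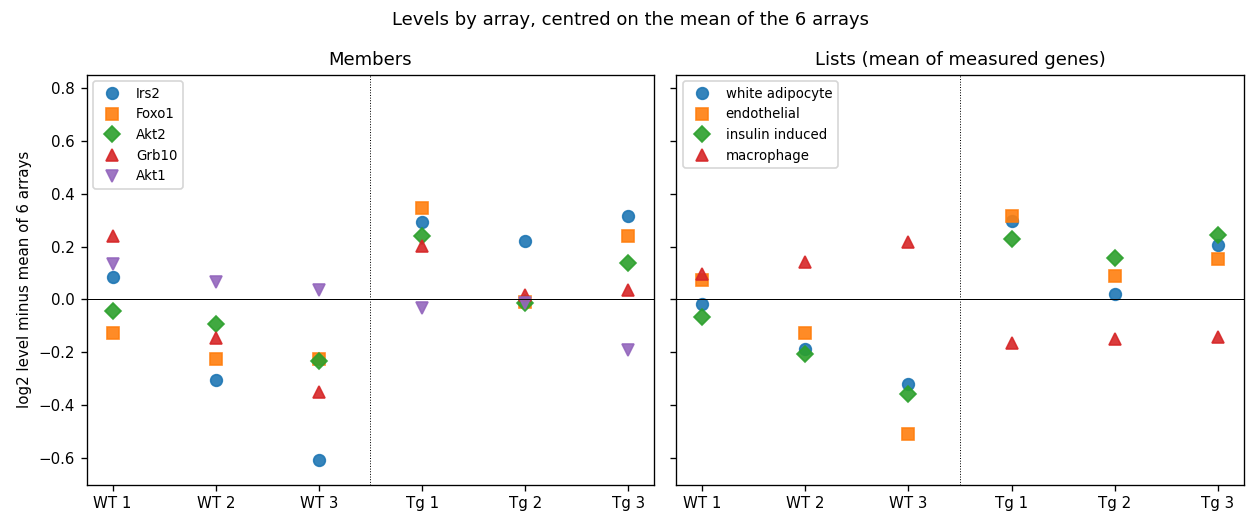
Log2 level minus the mean of the 6 arrays (vertical axis) by array (horizontal axis) for 5 genes of the chain (left) and for the mean of 4 gene lists (right). Each point is 1 array; Irs2, Foxo1 and Akt2 are low in WT 3 and high in Tg 1 and Tg 3, as the white adipocyte, endothelial and insulin-induced lists are, and the macrophage list and Akt1 are higher in WT.

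Around the 10 genes, 82 of 96 further pathway genes had a row that names them alone. Of these, 0 passed in limma after adjustment. At an unadjusted p under 0.05, 9 were higher and 8 lower in Tg (20.7%, against 10.3% of all rows and 14.4% of rows with a mean above 4). Groups did not overlap in 28 (34.1%, against 16.7% and 24.4%). They were 17 higher, against 7.36% and 10.3%, and 11 lower, against 9.35% and 14.1%. The 82 genes were not filtered by level, and 26 of those without overlap had a mean above 4. The median difference of the 82 was -0.01. As deposited 40 of 82 were higher, and 56 were with each array centred on its median, where 60.2% of all rows were higher. The remaining 14 were not analysed here.

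Among receptor-proximal adaptors (15 of 17 genes measured, median difference 0.06), the largest difference was in Irs3, a docking protein gene known from rodent adipocytes. It read 6.50, 5.89 and 5.76 in WT and 7.05, 6.80 and 6.81 in Tg, higher by 0.84 ± 0.21 without overlap (limma adjusted p = 0.35), and by 0.43 in WT 1, Tg 1 and Tg 3 alone. As with Irs2, WT 1 was the highest WT array. Dok1, an inhibitory docking protein gene, was lower by -0.29 ± 0.10 and Grb2, the adaptor gene of the RAS branch, by -0.26 ± 0.10, both without overlap. Igf1r, the gene of the related growth factor receptor, read 0.23 ± 0.17 with overlap.

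The list of inhibitors, phosphatases and other regulators of the chain (16 of 20 measured) held differences in both directions. At an unadjusted p under 0.05 there were 6 (37.5%, against 10.3% of all rows and 14.4% of rows with a mean above 4). They were 3 higher, against 4.43% and 6.55%, and 3 lower, against 5.88% and 7.82%. Ptpn1, the gene of the phosphatase PTP1B that dephosphorylates the receptor, read 6.17, 6.42 and 6.15 in WT and 5.57, 5.92 and 5.76 in Tg, lower by -0.50 ± 0.14 with no overlap (adjusted p = 0.35). Inpp5d, a lipid phosphatase gene of blood cells, was lower by -0.36 ± 0.11. Socs3, an inhibitor induced by cytokines, read -0.59 ± 0.24 with overlapping groups, -0.09 ± 0.13 in its dimmer row and -0.06 in WT 1, Tg 1 and Tg 3 alone. Higher in Tg were the receptor phosphatase gene Ptprf (0.45 ± 0.11) and the kinase gene Tnk2 (0.47 ± 0.10), both without overlap, as was Ptpn11 (0.34 ± 0.10), the SHP2 phosphatase gene, which was named after its value was seen.

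All 10 listed subunits and partners of phosphoinositide 3-kinase were measured, with a median of -0.04. Pik3cd, the catalytic subunit gene typical of leukocytes, was lower by -0.41 ± 0.13 without overlap. Only Pik3cd, 1 of the 10 (10%), had an unadjusted p under 0.05. Of all rows 10.3% reached it, and 14.4% of rows with a mean above 4, so the count lay near the background. The catalytic subunit genes Pik3ca (0.03 ± 0.10) and Pik3cb (-0.01 ± 0.11), which most tissues express and which were named after their values were seen, differed by less than their SE. Pdpk1, the kinase gene that activates AKT, read 0.14 ± 0.09. More of the 10 were lower (7) than higher (3) as deposited, and the split was 7 higher and 3 lower with each array centred on its median.

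Downstream of AKT, 19 of 21 genes were measured, with a median of 0.06. Deptor, an inhibitor of mTOR abundant in adipocytes, read 9.43, 8.98 and 9.07 in WT and 9.84, 9.70 and 9.72 in Tg, higher by 0.59 ± 0.14, and its second row gave 0.65 ± 0.14, both without overlap (adjusted p = 0.34 for the first). Eif4ebp1, the translation repressor gene that mTOR controls, was higher by 0.47 ± 0.14 without overlap. Pde3b, the phosphodiesterase gene through which insulin restrains lipolysis, read 0.29 ± 0.14 with overlap.

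For GLUT4 and its vesicles, 18 of 19 genes were measured, with a median of 0.01. Slc2a4, the GLUT4 gene, read 5.59, 5.74 and 5.31 in WT and 6.41, 5.45 and 6.07 in Tg. Tg 2 lay inside the WT range, and the difference was 0.43 ± 0.26. The vesicle genes Sort1 (0.36 ± 0.12, no overlap) and Trarg1 (0.46 ± 0.18, overlap) were higher, and Rab14 (-0.30 ± 0.09) and Stx4a (-0.28 ± 0.10), genes of more general membrane traffic, were lower without overlap. In the MAP kinase branch 4 of 9 genes were measured. None had an unadjusted p under 0.05, which 10.3% of all rows and 14.4% of rows with a mean above 4 reached.

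**Figure D4:**
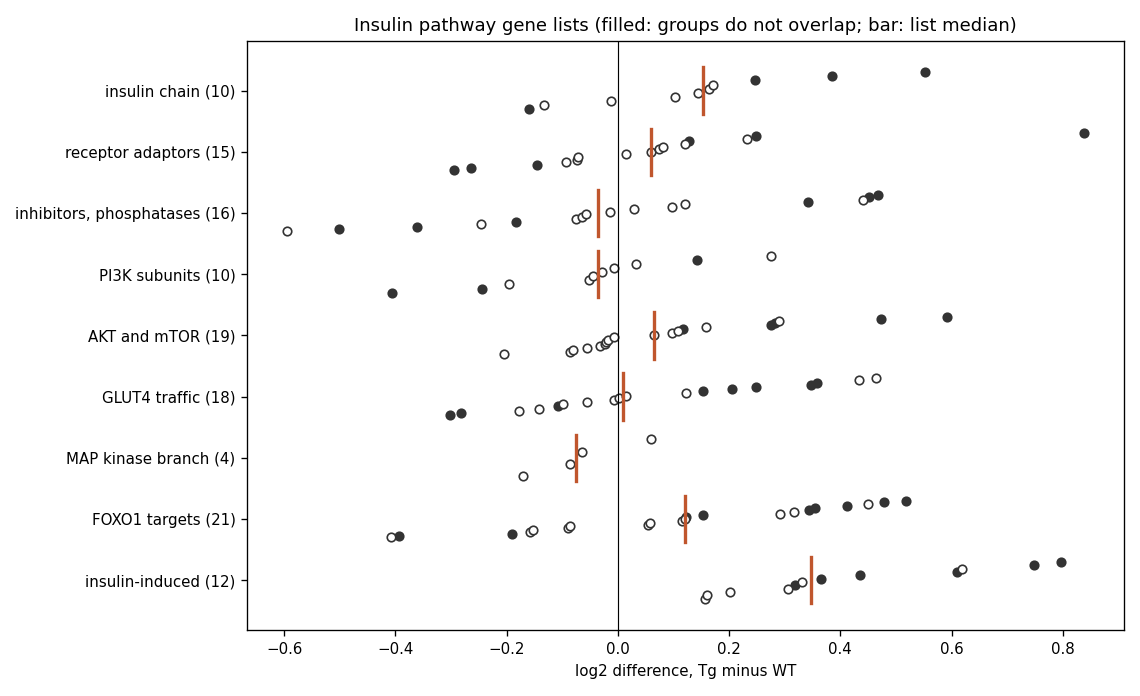
Log2 difference, Tg minus WT (horizontal axis), of each measured gene of 9 insulin pathway lists (vertical axis, number of genes in brackets). Filled points are genes whose 3 WT and 3 Tg arrays do not overlap and bars are list medians; the 12 insulin-induced genes all lie above 0, and the signalling lists lie on both sides of 0.

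Genes that the chain regulates were read from 2 lists. Of 12 measured genes that insulin is known to raise, all 12 were higher in Tg, with a median of 0.35. Higher in Tg were 47.2% of all rows and 43.5% of rows with a mean above 4. At an unadjusted p under 0.05 there were 6, against 10.3% of all rows and 14.4% of the brighter rows. All 6 were higher, against 4.43% and 6.55%. Groups did not overlap in 6, against 16.7% and 24.4%. These too were all higher, against 7.36% and 10.3%. Among the 12 genes Thrsp, a regulator of lipogenesis, read 0.80 ± 0.15. The ChREBP gene Mlxipl, a glucose-responsive activator of lipogenic genes, read 0.61 ± 0.12 (adjusted p = 0.33 for both in limma). The leptin gene Lep is also on the white adipocyte marker list, whose median difference was 0.36, and the part of adipocyte content in these values was not tested. Of 21 measured FOXO1 targets, which insulin is known to repress, 14 were higher and 7 lower, with a median of 0.12. The share of rows higher in Tg was 47.2% of all and 43.5% of those with a mean above 4. The stress-response gene Sesn3 read 0.41 ± 0.11 and the mitochondrial superoxide dismutase gene Sod2 0.34 ± 0.10, both higher without overlap, and the ubiquitin ligase gene Fbxo32 was lower by -0.39 ± 0.11 without overlap. Pnpla2 (0.36 ± 0.12, no overlap) is named because it is also on the white adipocyte marker list. The part of adipocyte content was not tested for the FOXO1 targets either. Over both lists, 11 of 33 genes had an unadjusted p under 0.05 (33.3%, against 10.3% of all rows and 14.4% of rows with a mean above 4). None of them passed after adjustment in limma.

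Genes whose levels followed those of the chain most closely were ranked by Pearson's r over the 6 arrays, among 8388 characterised genes with a mean above 5. With 6 arrays in 2 groups such values describe likeness and carry no test. For Irs2 they were Tecr (0.998), Cgnl1 (0.996) and Cdc42ep1 (0.995), and 249 genes exceeded 0.95. For Foxo1 they were Car3 (0.999), Sh3pxd2a (0.994) and Cyb5a (0.994), and 130 genes exceeded 0.95. Insr was most like Rpap3 (0.999), Lrba (0.989) and Apold1 (0.989), with 43 genes above 0.95. Grb14 was most like Kif20a (0.993), Mnt (0.979) and Ppp2ca (0.978), with 19 genes above 0.95. Ppp2ca was taken from its brightest row (mean 5.58, difference -0.01 ± 0.11), and another of its rows (mean 5.36) differed by 0.68 ± 0.38.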

How the data were processed

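Biotin-labelled RNA of 6 eWAT samples was hybridised, per the labels, to Affymetrix whole-transcript arrays. The deposited values are log2 expression, 1 per row and array. The submitters' processing notes name RMA and limma, but the sources used here do not state versions, settings, filters or a genome build. RMA compresses low values and hides changes of total RNA, and the 3 arrays per group limit the precision.

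Of 41345 rows, 23521 name 1 gene, 1814 several and 16010 none in the platform annotation. Tg was compared with WT over all rows with limma 3.58.1 in R 4.3.3 (lmFit, eBayes, 2-sided, no covariate, no filter), with p-values adjusted by Benjamini-Hochberg and called at 0.05. All differences given are Tg minus WT. The procedure was tested on simulated data with planted differences larger than those of the 10 genes. That test does not cover differences of the size seen in these genes. Named besides the 10 genes were, per list, up to 2 genes of smallest unadjusted p in each direction, 7 set genes, and the 3 genes most like Irs2, Foxo1, Insr and Grb14. The members, lists and named genes were chosen with earlier results of these data known.

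The labels number replicates 1 to 3 in both groups. Deviations of same-numbered arrays from their group means correlated by -0.04, 0.01 and -0.04, so the numbers were not taken as pairs. No pair of arrays held identical values. Alternatives left out arrays, blocked by replicate number, renormalized, filtered rows, changed the variance model or averaged rows.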

Additional observations from a re-analysis of the deposited data

How the results depend on the processing

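No alternative gave a row past the adjusted threshold, over all rows or in any list. Of the 10 genes, 8 kept their direction in all 17 alternatives fixed at the start. Grb10 was -0.12 in the 3 arrays with least tract signal, and Grb14 was -0.42 there, 0.14 without WT 1, 0.18 without Tg 1, 0.053 with median centring, 0.032 with quantile normalization, 0.027 with cyclic loess and 0.019 with array weights; its range without 1 array was -0.16 to 0.18. Relative to adipocyte markers, an alternative added later, 2 of 10 were higher, with Insr at -0.18, Irs1 at -0.24, Akt2 at -0.10, Tbc1d4 at -0.20 and Grb10 at -0.18. Without 1 array, the genes with an unadjusted p under 0.05 numbered 0 to 3 of the 10 (0 without WT 2, Tg 1 or Tg 3), 8 to 20 of the further pathway genes (8 without WT 2, 10 without WT 3, 11 without Tg 1) and 9 to 15 of the targets. The share of all rows moved too, from 7.51% without WT 2 to 12.3% without WT 1. It was 7.63% without WT 3, 8.50% without Tg 1 and 8.91% without Tg 3, against 10.3% with all arrays. Groups not overlapping, which fewer arrays make more frequent, then came to 25.3% to 31.2% of all rows and 15 to 23 targets (23 without WT 1). With the 3 arrays of least tract signal, 1 of them WT, an unadjusted p under 0.05 was reached by 5.43% of rows, 0 of the 10, 0 of the pathway genes and 2 targets; the spread then rests on 2 Tg arrays, assumed to hold for WT too, so these counts say nothing about tract signal, and overlap was not counted. Among rows with a mean above 4, refitted alone, 17.5% did. At an unadjusted p under 0.05 the replicate block gave 2 of the 10, 15 pathway genes and 11 targets, against 2, 17 and 11 without it. Of all rows 9.76% reached it with the block, against 10.3% without. No row passed the adjusted threshold either way. The causes were not tested.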
